A study of Mus musculus with 9 samples.

Results

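The genes described here carry out the use of glucose: its uptake, glycolysis and the export of lactate, the making and breakdown of glycogen, and the pentose phosphate pathway. A fixed list of 42 gene symbols was looked up in the deposited gene table, and 42 of the 42 were found among 18325 genes with values. Each of the 42 also passed the filter on low counts. The list names the carriers, enzymes and regulators of 6 branches, with the isoform genes of each step.

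RNA of sorted lung neutrophils was sequenced in 9 libraries, 3 from each of 3 groups, in a mouse model of breast cancer spreading to the lung. The mice of all groups were female BALB/c, and cells of their lungs were sorted as CD45+ and by surface Ly6G. Ly6Ghi denotes Ly6Ghigh neutrophils taken at the macrometastatic stage (MACRO in the labels), after 4T1-LM3 cells, a lung-selected derivative of the 4T1 breast cancer line, had been placed in the mammary fat pad, and Ly6Glow denotes Ly6Glow neutrophils of that same stage and model. NL denotes Ly6Ghigh neutrophils for whose mice the labels name no tumor cells and which the study's methods call normal lung tissue. The age of the mice at collection is not in the labels, and no source says whether a library was a single mouse or a pool, so that p-values measure the spread between these libraries, which may be technical. Library totals of the deposited counts ran from 17004235 to 17841807 in Ly6Ghi, from 15267177 to 16553629 in Ly6Glow and from 16570344 to 17171045 in NL.

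Glucose enters a cell through carriers of the Slc2a family, is trapped by hexokinase and is cut in glycolysis to pyruvate, which is either reduced to lactate or passed to the mitochondria. Side branches store glucose as glycogen, or oxidise it in the pentose phosphate pathway, whose NADPH feeds the oxidative burst and the glutathione system. Neutrophils hold few mitochondria and are known to rely on glycolysis for energy and on glycogen as a reserve in tissue with little glucose.

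The labels were first set against marker genes, in CPM (counts per 1e6 counts of the TMM-scaled library) and FPKM (fragments per kilobase of gene and 1e6 fragments). Ly6g itself, the gene of the sorting antigen, had 120.2, 120.2 and 118 CPM in the NL libraries, 379.8, 361 and 380.1 CPM in Ly6Ghi and 385, 403 and 394 CPM in Ly6Glow. In CPM Ly6Glow over Ly6Ghi was not called (log2 fold change 0.08 ± 0.03 SE, edgeR adjusted p = 0.0577), and the order of these groups depends on the scaling. By FPKM it was the reverse and as labeled, with 414, 396 and 417 in Ly6Ghi and 358, 373 and 366 in Ly6Glow. In both units the transcript was lowest in the NL libraries, although these carry the Ly6Ghigh label (179.8, 184 and 178 FPKM). The columns of the gene table were matched to the samples by their titles. A list of 10 neutrophil markers summed to 19811, 19749 and 19579.7 CPM in NL, to 83109, 81083 and 81702 CPM in Ly6Ghi and to 75862, 77635 and 77413 CPM in Ly6Glow, with S100a9 the most abundant in each group and none of the 10 at 0. Transcripts of lung structural cells ran the other way. The 5 endothelial markers summed to 919, 844 and 904 CPM in NL, 135, 133 and 132 CPM in Ly6Ghi and 172, 169 and 162 CPM in Ly6Glow, led by Pecam1. For the 5 fibroblast markers, led by Col3a1, the sums were 539, 514 and 545 CPM in NL, 57.0, 49.4 and 52.7 CPM in Ly6Ghi and 55.6, 57.6 and 51.5 CPM in Ly6Glow. The 9 epithelial and tumor cell markers, led by the alveolar surfactant gene Sftpc, reached 1033, 931 and 1017 CPM in NL against 93.8, 96.3 and 91.2 CPM in Ly6Ghi and 97.4, 99.4 and 93.7 CPM in Ly6Glow, with the basal keratin Krt5 at 0 in both macrometastatic groups. In bulk RNA a smaller number of cells of a type and less RNA per cell cannot be told apart.

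The promoters of the members are given first, as sequence alone. RefSeq start sites on GRCm38.p6 (the build of the files, mm10) matched 41 of the 42 members, all but Slc2a3, with 58 start sites in all. The 250 bases before each start were searched on both strands for ACGTG, the core of the element that hypoxia-inducible factors bind, and for CACGTG, the E-box, which contains it. ACGTG was present in 37.9% of the 58 member promoters, in 20.7% of the promoters of tested genes and in 16.6% of all 32851 promoters, and CACGTG in 8.62%, 7.93% and 6.02%. The mean GC content was 59.5% in the member promoters, 59.2% in those of tested genes and 53.2% in all. A match describes the letters and is not a bound site. Printed 5′ to 3′ on the strand of the gene are the windows of 3 genes that were highest in both macrometastatic groups or in Ly6Glow (Pfkfb3, Pgk1, Ldha), of the lactate exporter gene Slc16a3, of Hk2, which was lowest in Ly6Glow, and of Gapdh, the most abundant member, which holds neither motif. Each stops where GENCODE annotates an exon, and capitals mark ACGTG read on either strand.
Pfkfb3 (chr2:11502102-11502340, - strand): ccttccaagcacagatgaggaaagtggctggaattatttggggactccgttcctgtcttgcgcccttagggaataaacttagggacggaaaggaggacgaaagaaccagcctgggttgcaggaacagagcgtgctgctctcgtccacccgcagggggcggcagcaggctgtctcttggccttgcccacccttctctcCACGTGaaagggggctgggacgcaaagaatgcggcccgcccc
Slc16a3 (chr11:120948817-120949052, + strand): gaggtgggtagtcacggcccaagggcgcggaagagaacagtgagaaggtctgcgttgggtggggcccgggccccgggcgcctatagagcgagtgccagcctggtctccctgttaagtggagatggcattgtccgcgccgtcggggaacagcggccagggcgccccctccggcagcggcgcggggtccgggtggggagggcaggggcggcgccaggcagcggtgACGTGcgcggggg
Pgk1 (chrX:106186850-106187099, + strand): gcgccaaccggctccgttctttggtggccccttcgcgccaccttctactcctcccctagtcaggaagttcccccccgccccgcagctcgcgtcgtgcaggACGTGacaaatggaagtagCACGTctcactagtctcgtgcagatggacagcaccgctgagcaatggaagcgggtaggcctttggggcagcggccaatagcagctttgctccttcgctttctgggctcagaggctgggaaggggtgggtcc
Ldha (chr7:46845554-46845803, + strand): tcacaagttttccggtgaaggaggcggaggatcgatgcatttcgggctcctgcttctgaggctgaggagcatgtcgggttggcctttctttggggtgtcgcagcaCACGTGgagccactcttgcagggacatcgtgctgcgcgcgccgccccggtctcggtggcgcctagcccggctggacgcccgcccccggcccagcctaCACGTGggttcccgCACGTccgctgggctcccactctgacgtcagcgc
Hk2 (chr6:82774455-82774704, - strand): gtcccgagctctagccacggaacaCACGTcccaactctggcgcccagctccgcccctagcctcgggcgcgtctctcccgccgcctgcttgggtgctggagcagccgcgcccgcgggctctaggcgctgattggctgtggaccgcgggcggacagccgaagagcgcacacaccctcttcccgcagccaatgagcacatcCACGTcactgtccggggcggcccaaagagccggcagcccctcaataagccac
Gapdh (chr6:125165774-125166023, - strand): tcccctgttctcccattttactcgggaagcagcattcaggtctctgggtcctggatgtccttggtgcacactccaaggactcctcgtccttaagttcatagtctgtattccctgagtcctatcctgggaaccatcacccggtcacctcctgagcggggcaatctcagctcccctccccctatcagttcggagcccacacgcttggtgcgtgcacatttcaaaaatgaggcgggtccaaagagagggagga
The window of Pfkfb3 belongs to the start site inside the gene's span, and that of Ldha holds ACGTG 5 times, counting both strands of each CACGTG. At the other start site ACGTG was found 1 time for Pfkfb3 and 0 times for Ldha. Tpi1, Pfkp and Pdk1, also highest in Ly6Glow, hold no ACGTG, so the printed windows do not stand for all members.

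Over NL, most of the members were higher in both macrometastatic groups. A gene was called when its adjusted p in edgeR's quasi-likelihood test was at most 0.05 and its log2 fold change was beyond 0.58 in either direction. In Ly6Ghi over NL, 31 of the 42 were called higher, against 26.3% of the 14108 genes tested, and 3 lower, against 36.6%. In Ly6Glow over NL, 34 were called higher (background 28.7%) and 4 lower (background 40.8%). These comparisons share the NL libraries and are given side by side. Higher in both were 29 members (background 21.1%) and lower in both 3 (background 33.3%), namely Pfkm, Ldhb and Slc16a1. The median log2 fold change of the 42 was 1.41 in Ly6Ghi over NL, with -0.09 for all genes tested, and 1.50 in Ly6Glow over NL, with -0.16 for all genes. NL replicate 2 stood apart from the other NL libraries, with a chi-square of the counts per degree of freedom of 5.30 and 4.05 against replicates 1 and 3, and 1.49 between those. Without it 31 members were higher and 3 lower in Ly6Ghi over NL, and 35 and 4 in Ly6Glow over NL.

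Between Ly6Glow and Ly6Ghi neutrophils fewer members were called. There 10 members were called higher in Ly6Glow (background 9.29%) and 2 lower (background 15.9%), with a median of 0.19 beside -0.04 for all genes. Higher were the glucose carriers Slc2a1 and Slc2a6, Pfkl and Pfkp, Pfkfb3, Aldoc, Tpi1, Pdk1, Slc16a3 and Pgm2. Lower were Fbp1 and Pgls. Another 24 members had an adjusted p of at most 0.05 (edgeR) with a log2 fold change within the threshold, 13 of them above 0 and 11 below. The largest adjusted p among the members called was 5.01e-06 in Ly6Ghi over NL, 1.19e-07 in Ly6Glow over NL and 0.000703 in Ly6Glow over Ly6Ghi (edgeR).

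The size of these differences depended on the scaling between libraries. TMM factors were 1.30 to 1.32 in NL, 0.945 to 0.950 in Ly6Ghi and 0.803 to 0.807 in Ly6Glow. With library totals and no TMM, an alternative chosen after seeing the data, the median of all genes moved to -0.55 in Ly6Ghi over NL, -0.86 in Ly6Glow over NL and -0.28 in Ly6Glow over Ly6Ghi, and the members moved with it. The members' median lay 1.50, 1.66 and 0.23 above that of all genes with TMM, a distance that library totals leave nearly unchanged by construction, since one factor moves all genes of a library. It was 1.19, 1.27 and 0.09 on log2(FPKM + 1), and 1.27, 1.38 and 0.21 among genes with at least 10 counts in every library. The split of calls moved too. With library totals 26 members were higher and 5 lower in Ly6Ghi over NL, where 12.3% and 48.5% of all genes were. In the same order the numbers and backgrounds were 26 and 4 (9.43% and 56.7%) in Ly6Glow over NL and 5 and 8 (4.04% and 26.4%) in Ly6Glow over Ly6Ghi. On log2(TPM + 1) with limma they were 21 and 7 (5.43% and 54.4%), 21 and 6 (4.77% and 59.9%) and 5 and 5 (3.44% and 14.3%). Under every alternative with the same fold threshold, 21 members stayed higher in each comparison with NL, and Slc2a1, Slc2a6, Pfkfb3 and Slc16a3 stayed higher and Fbp1 and Pgls lower in Ly6Glow over Ly6Ghi. Without any scaling, the members made up 1.39%, 1.29% and 1.37% of the estimated counts in the NL libraries, 2.58%, 2.59% and 2.55% in Ly6Ghi and 2.61%, 2.65% and 2.54% in Ly6Glow.

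**Figure D1:**
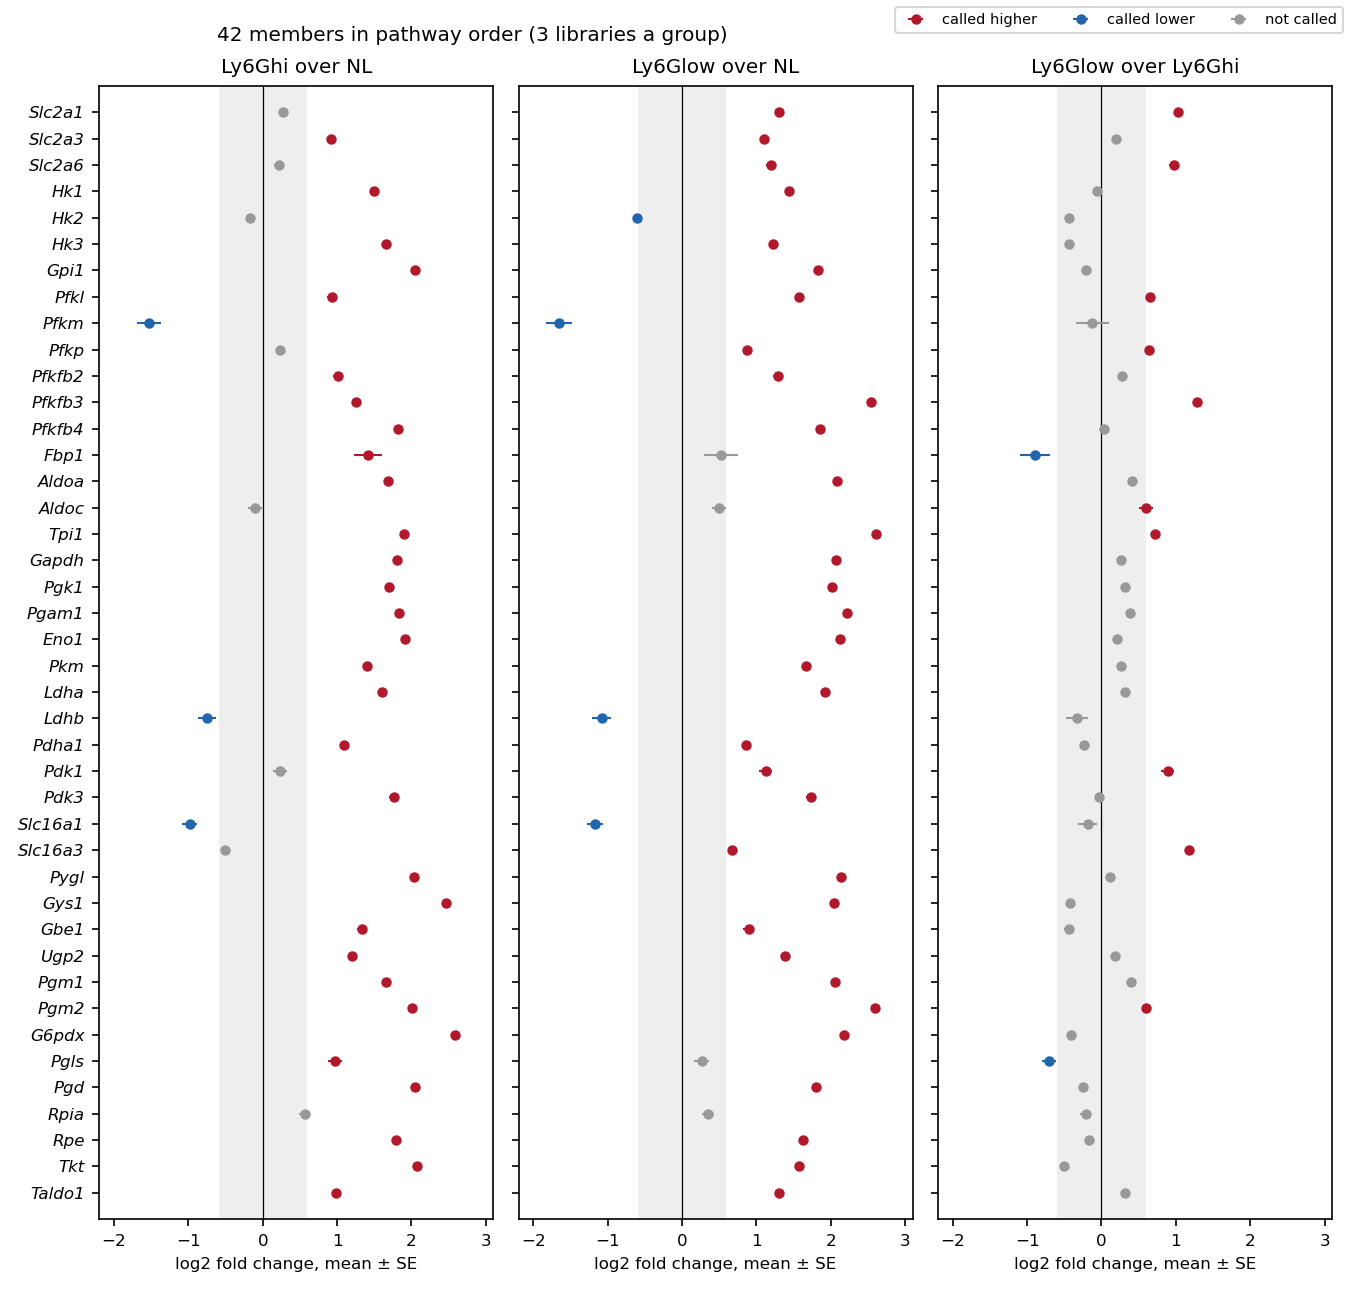
Log2 fold change (horizontal axis, mean ± SE, 3 libraries a group) of the 42 members in pathway order for the 3 comparisons. Red points were called higher, blue points lower and gray points not called, and the gray band spans -0.58 to 0.58. In Ly6Glow over Ly6Ghi most points lie in the band, where the sign of several flips with library totals in place of TMM, while Pfkfb3 stands at 1.29.

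Glucose uptake changed by isoform. Slc2a1, the broadly expressed carrier GLUT1, had 386, 355 and 375 CPM in the NL libraries, 447, 461 and 444 CPM in Ly6Ghi and 919, 933 and 906 CPM in Ly6Glow. It was 1.03 ± 0.03 (log2 fold change ± SE, here and below) higher in Ly6Glow than in Ly6Ghi (edgeR adjusted p = 1.97e-16) and 1.31 ± 0.03 higher than in NL, the latter 0.32 and not called on log2(TPM + 1). Ly6Ghi over NL was not called, at 0.28 ± 0.03, and its sign flipped to -0.19 with library totals. Slc2a3, the high-affinity carrier GLUT3, had 740.4, 738 and 736 CPM in the NL libraries, 1349.8, 1421 and 1398 CPM in Ly6Ghi and 1586, 1586 and 1602 CPM in Ly6Glow. Both macrometastatic groups lay above NL without overlap, by 0.91 ± 0.03 in Ly6Ghi and 1.11 ± 0.03 in Ly6Glow. With library totals these were 0.45 and 0.41, and on log2(TPM + 1) 0.08 and 0.13, and none of these was called. Ly6Glow over Ly6Ghi, at 0.20 ± 0.03, was not called and flipped to -0.04 with library totals. Slc2a6, a carrier of the lysosomal membrane, followed the pattern of Slc2a1, with 129, 101 and 120.5 CPM in the NL libraries, 136, 137 and 135 CPM in Ly6Ghi and 278, 276 and 246 CPM in Ly6Glow. Its rise in Ly6Glow was 0.97 ± 0.06 over Ly6Ghi and 1.19 ± 0.06 over NL. The latter was 0.49 with library totals and 0.21 on log2(TPM + 1), not called with either. Ly6Ghi over NL, at 0.22 ± 0.06, was not called and flipped to -0.24 with library totals and to -0.61, called lower, on log2(TPM + 1).

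Shares within a library need no scaling between libraries, and FPKM allows levels to be set side by side between genes. Of the summed FPKM of the 3 carriers, Slc2a3 gave 48.0% ± 1.58 (SD, n = 3) in NL, 59.2% ± 0.562 in Ly6Ghi and 45.1% ± 0.822 in Ly6Glow. Slc2a1 gave 37.6% ± 0.302, 29.8% ± 0.383 and 40.5% ± 0.19 in the same order. The Ly6Ghi libraries thus stood apart from both other groups, with more Slc2a3 for each Slc2a1, and no library of Ly6Ghi overlapped one of another group in either share. An exact two-sided permutation test of 3 against 3 libraries cannot go below p = 0.1, so that no test is given for shares. Lack of overlap was common in these libraries and says little by itself. By CPM 41 of the 42 members did not overlap in Ly6Ghi over NL, 40 in Ly6Glow over NL and 38 in Ly6Glow over Ly6Ghi.

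**Figure D2:**
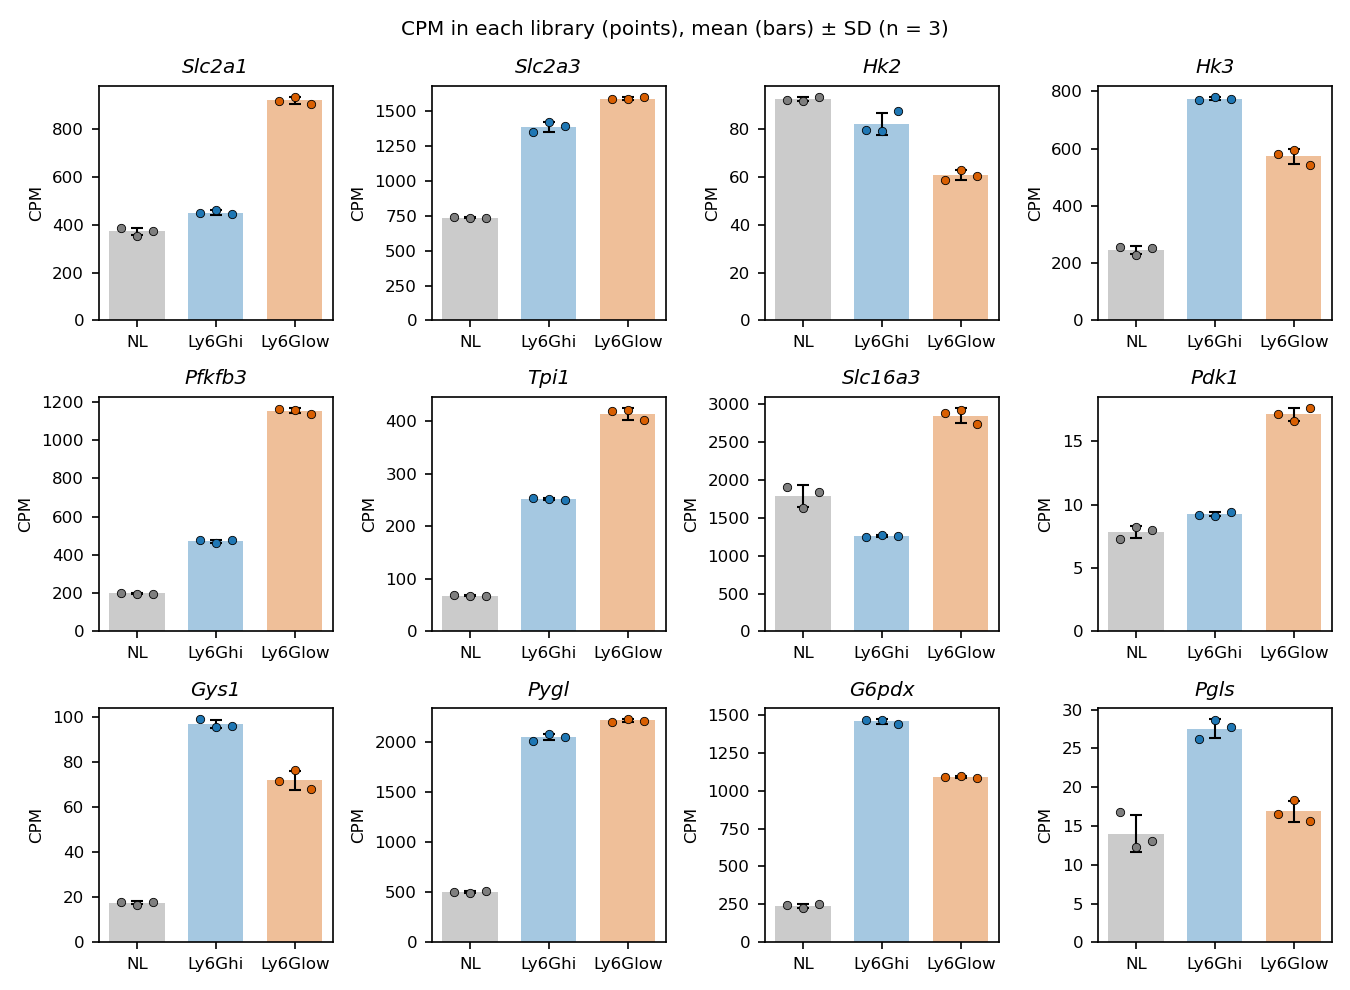
CPM of 12 members in each library (points), with group means (bars) and SD (n = 3). Slc2a1, Pfkfb3, Pdk1 and Slc16a3 are highest in Ly6Glow, at means of 919, 1153, 17.1 and 2851 CPM, Hk2 is lowest there at 60.8 CPM, and Hk3, Gys1, G6pdx and Pgls are highest in Ly6Ghi, with the caveat that Hk2, Hk3, Gys1 and G6pdx are called between Ly6Glow and Ly6Ghi with library totals and not with TMM. By FPKM the means of Slc16a3 are close in NL, at 972, and in Ly6Glow, at 957. Limma on log2(FPKM + 1) gives -0.0192 for Ly6Glow over NL (limma adjusted p = 0.703).

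Hexokinases, which phosphorylate glucose on entry, split in direction. Hk3, the isoform of myeloid cells, had 255, 230.1 and 253 CPM in the NL libraries, 769, 779.8 and 772 CPM in Ly6Ghi and 583, 594 and 543 CPM in Ly6Glow. It rose by 1.65 ± 0.04 in Ly6Ghi and 1.22 ± 0.04 in Ly6Glow over NL. The latter was 0.52 with library totals and 0.24 on log2(TPM + 1), not called with either. Hk1, the isoform of most tissues, had 81.2, 75.4 and 78.3 CPM in the NL libraries, 228, 220.4 and 216 CPM in Ly6Ghi and 213, 214 and 208 CPM in Ly6Glow. The gene rose by 1.50 ± 0.04 and 1.43 ± 0.04, the latter 0.44 and not called on log2(TPM + 1). Hk2, an isoform that binds mitochondria and is induced by insulin and hypoxia in other cells, went the other way, with 92.2, 91.8 and 93.4 CPM in the NL libraries, 79.6, 79.2 and 87.7 CPM in Ly6Ghi and 58.9, 63.1 and 60.4 CPM in Ly6Glow. In Ly6Glow over NL it fell at -0.60 ± 0.05, close to the threshold, and without Ly6Glow replicate 1 it was -0.58 and no longer called, as with DESeq2 (-0.51). It stayed called with library totals, at -1.31, and on log2(TPM + 1), at -1.61. Ly6Ghi over NL was -0.17 ± 0.04 and not called with TMM, and -0.64 and called lower with library totals. Between the macrometastatic groups Hk2 and Hk3 stood at -0.43 ± 0.05 and -0.43 ± 0.04, below the fold threshold with TMM and at -0.67 and -0.67, past it, with library totals. In shares of the hexokinase FPKM, Hk2 gave 16.4, 17.4 and 16.6% in the NL libraries, 5.13, 5.11 and 5.80% in Ly6Ghi and 4.85, 4.98 and 5.07% in Ly6Glow. Hk3 was the leading isoform in all 9 libraries, at 65.8% ± 0.846 (SD) in NL, 76.5% ± 0.354 in Ly6Ghi and 72.8% ± 0.592 in Ly6Glow.

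Gpi1, which turns glucose phosphate into fructose phosphate at the branch point with the pentose phosphate pathway, had 389.7, 344 and 366 CPM in the NL libraries, 1520.1, 1509.5 and 1503 CPM in Ly6Ghi and 1314, 1329.5 and 1269.7 CPM in Ly6Glow. Its rise over NL was 2.04 ± 0.04 in Ly6Ghi and 1.83 ± 0.04 in Ly6Glow, and Ly6Glow over Ly6Ghi, at -0.21 ± 0.04, was not called. The next step, the committed one of glycolysis, is set by phosphofructokinase, for which 3 isoform genes were measured. Pfkl, the liver type, had 57.4, 50.3 and 60.7 CPM in the NL libraries, 109, 107 and 104 CPM in Ly6Ghi and 165, 181 and 157 CPM in Ly6Glow. It rose at each step, by 0.93 ± 0.06 in Ly6Ghi over NL and by 0.65 ± 0.06 in Ly6Glow over Ly6Ghi (edgeR adjusted p = 1.73e-09). With library totals these were 0.46 and 0.41, and on log2(TPM + 1) 0.10 and 0.49, and none of these was called. Pfkp, the platelet type, had 116, 112 and 114 CPM in the NL libraries, 134, 134 and 135 CPM in Ly6Ghi and 204, 209 and 214 CPM in Ly6Glow. Only Ly6Glow stood out for this gene, by 0.88 ± 0.04 over NL and 0.64 ± 0.04 over Ly6Ghi. With library totals these were 0.17 and 0.40 and neither was called, and with log2(TPM + 1) the sign of Ly6Glow over NL flipped to -0.10, as did that of Ly6Ghi over NL, from 0.24 ± 0.04 to -0.57. Pfkm, the muscle type, was low throughout, with 6.96, 5.93 and 5.27 CPM in the NL libraries, 2.34, 1.95 and 1.98 CPM in Ly6Ghi and 2.03, 2.18 and 1.52 CPM in Ly6Glow. It fell over NL, at -1.53 ± 0.16 in Ly6Ghi and -1.66 ± 0.18 in Ly6Glow. By FPKM share Pfkp led with 68.8% ± 1.44 in NL, 60.5% ± 0.781 in Ly6Ghi and 60.4% ± 2.07 in Ly6Glow, and Pfkl followed with 27.3% ± 1.74, 38.5% ± 0.705 and 39.0% ± 1.98. The balance of Pfkl to Pfkp differed between NL and the macrometastatic groups but overlapped between Ly6Ghi and Ly6Glow.

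Pfkfb3 showed the largest rise of any member in Ly6Glow over Ly6Ghi. The enzymes of this family make and break fructose bisphosphate of the regulatory kind, the strongest activator of phosphofructokinase, and that of Pfkfb3 works almost wholly in the making direction. Pfkfb3 had 201, 198 and 197 CPM in the NL libraries, 478, 463 and 475 CPM in Ly6Ghi and 1163, 1157 and 1137 CPM in Ly6Glow. The steps were 1.25 ± 0.03 in Ly6Ghi over NL and 1.29 ± 0.03 in Ly6Glow over Ly6Ghi (edgeR adjusted p = 6.58e-19), with 1.05 for the latter with library totals and 0.42, not called, for the former on log2(TPM + 1). Pfkfb4 had 89.1, 85.0 and 87.8 CPM in the NL libraries, 306, 307 and 314 CPM in Ly6Ghi and 312, 319.9 and 313 CPM in Ly6Glow. It rose alike over NL, by 1.82 ± 0.03 and 1.85 ± 0.04, and the macrometastatic groups overlapped at 0.03 ± 0.03, a sign that flipped with library totals (-0.21). Pfkfb2, the heart type, was the lowest of the 3 family genes on the list, with 24.4, 24.6 and 22.0 CPM in the NL libraries, 47.1, 49.7 and 46.1 CPM in Ly6Ghi and 59.2, 54.0 and 59.6 CPM in Ly6Glow. Its rises were 1.01 ± 0.06 and 1.28 ± 0.06 over NL, which on log2(TPM + 1) were 0.09 and 0.23 and not called. As shares of the summed FPKM of these 3 genes, Pfkfb3 gave 59.7, 60.9 and 60.4% in NL, 52.5, 51.4 and 51.8% in Ly6Ghi and 71.8, 71.5 and 71.5% in Ly6Glow, and Pfkfb4 gave 34.6% ± 0.635, 44.6% ± 0.538 and 25.9% ± 0.262. The 9 libraries thus fell into 3 separate levels, with the share of Pfkfb3 lowest in Ly6Ghi although its CPM was lowest in NL. Fbp1, which runs the committed step backward in gluconeogenesis, is given in full although it stayed below 5 CPM, a choice made after its values were seen, with 1.35, 1.78 and 1.13 CPM in the NL libraries, 3.57, 3.54 and 4.27 CPM in Ly6Ghi and 2.27, 2.26 and 1.60 CPM in Ly6Glow. It was higher in Ly6Ghi, by 1.42 ± 0.19 over NL (0.46 and not called on log2(TPM + 1)), and lower in Ly6Glow, at -0.89 ± 0.20 over Ly6Ghi (edgeR adjusted p = 0.000703). Ly6Glow overlapped NL, at 0.52 ± 0.23, a value that was called without NL replicate 2 (0.72) or without Ly6Glow replicate 3 (0.68) and with DESeq2 (0.62) and that flipped to -0.17 with library totals.

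**Figure D3:**
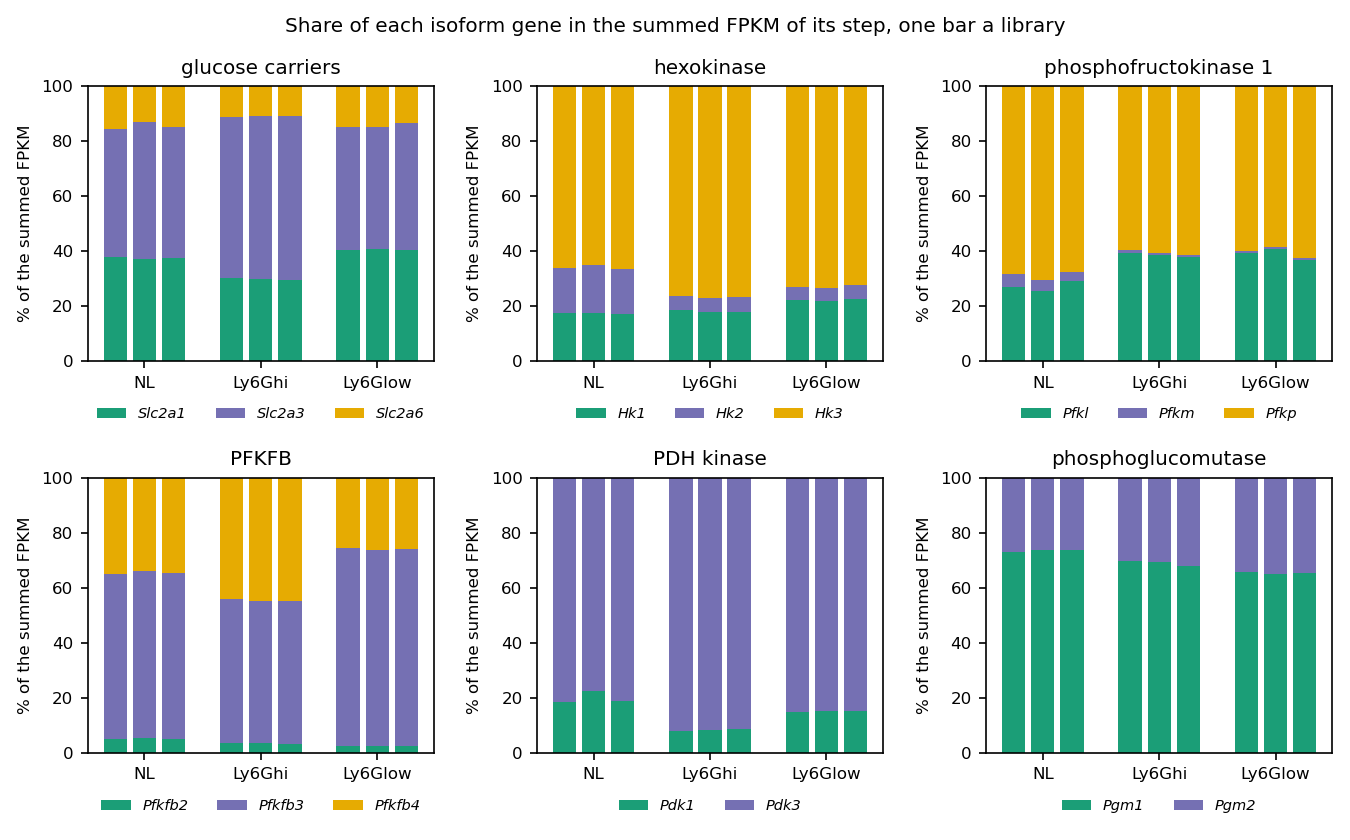
Share of each isoform gene in the summed FPKM of the members of its step (vertical axis, percent), with one stacked bar for each of the 9 libraries. Slc2a3 and Pfkfb4 take their largest shares in Ly6Ghi, Pfkfb3 takes its largest in Ly6Glow at 71.6%, and Hk2 shrinks from 16.8% in NL to 5.35% in Ly6Ghi and 4.97% in Ly6Glow.

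Below the committed step Aldoa, Tpi1, Gapdh, Pgk1, Pgam1, Eno1, Pkm and Ldha were called higher over NL in both groups. Aldoc was called in neither comparison with NL, and Ldhb was called lower in both. Of all 17 glycolytic enzymes on the list, 12 were called higher and 2 lower in Ly6Ghi over NL (background 26.3% and 36.6%). In Ly6Glow over NL 13 were called higher and 3 lower (background 28.7% and 40.8%). Aldoa, the aldolase of most cells, had 451, 385 and 442 CPM in the NL libraries, 1386, 1365 and 1335 CPM in Ly6Ghi and 1826, 1839 and 1753 CPM in Ly6Glow, a rise of 1.68 ± 0.04 in Ly6Ghi and 2.08 ± 0.04 in Ly6Glow. It supplied 98.8% ± 0.078, 99.7% ± 0.019 and 99.6% ± 0.025 of the aldolase FPKM in NL, Ly6Ghi and Ly6Glow. Aldoc, the brain type, had 9.07, 8.81 and 9.15 CPM in the NL libraries, 8.49, 8.86 and 7.74 CPM in Ly6Ghi and 11.9, 13.3 and 12.9 CPM in Ly6Glow. NL and Ly6Ghi overlapped in CPM but not in FPKM, with 4.47, 4.43 and 4.54 in NL and 3.05, 3.19 and 2.79 in Ly6Ghi. Ly6Ghi over NL went from -0.11 ± 0.09 to -0.57 with library totals and to -0.83, called lower, on log2(TPM + 1). Ly6Glow over NL, at 0.50 ± 0.09, was not called, was called with DESeq2 (0.59), and flipped to -0.21 with library totals. Ly6Glow over Ly6Ghi, at 0.60 ± 0.09 (edgeR adjusted p = 1.18e-05), was at the threshold: without Ly6Ghi replicate 3 it was 0.55 and without Ly6Glow replicate 2 0.56, and with library totals 0.37, and not called. Tpi1, which interconverts the triose phosphates, had 68.8, 67.2 and 67.1 CPM in the NL libraries, 253, 253 and 249.8 CPM in Ly6Ghi and 420.4, 421 and 402 CPM in Ly6Glow. It showed the largest rise of the 42 in Ly6Glow over NL, 2.61 ± 0.04, after 1.90 ± 0.04 in Ly6Ghi, and 0.72 ± 0.03 between the macrometastatic groups, 0.48 and not called with library totals.

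Gapdh, the oxidation step, was the most abundant member by FPKM in each group, with 1257, 1087 and 1200.2 CPM in the NL libraries, 4266, 4105 and 3980.3 CPM in Ly6Ghi and 4984, 5099.6 and 4766 CPM in Ly6Glow. Over NL it rose by 1.80 ± 0.04 in Ly6Ghi and 2.07 ± 0.04 in Ly6Glow, so that this gene, often used as a reference, was not level between the groups. Pgk1, the first step to yield ATP, had 222, 219 and 222 CPM in the NL libraries, 714, 729 and 709 CPM in Ly6Ghi and 894, 909.9 and 873 CPM in Ly6Glow, with rises of 1.70 ± 0.03 and 2.01 ± 0.03. Pgam1, the mutase, had 168, 164 and 163 CPM in the NL libraries, 586, 585 and 593 CPM in Ly6Ghi and 756, 789.5 and 749 CPM in Ly6Glow, with rises of 1.83 ± 0.03 and 2.21 ± 0.03. Eno1, the enolase of most cells, had 336, 292 and 315 CPM in the NL libraries, 1204, 1188 and 1159 CPM in Ly6Ghi and 1335, 1423 and 1344 CPM in Ly6Glow, with rises of 1.91 ± 0.04 and 2.12 ± 0.04. From Gapdh to Eno1 the differences between Ly6Glow and Ly6Ghi ran from 0.21 ± 0.04 for Eno1 to 0.38 ± 0.03 for Pgam1, below the fold threshold, and that of Eno1 flipped to -0.03 with library totals. Gapdh, Ldha, Pgk1, Pgam1, Aldoa and Tpi1 have processed pseudogenes and Eno1 a near-identical copy, Eno1b, so that how the counting shared reads among them is uncertain. Eno1b itself had 15.4, 13.9 and 19.6 CPM in the NL libraries, 52.6, 53.6 and 54.9 CPM in Ly6Ghi and 74.7, 65.2 and 47.0 CPM in Ly6Glow, with rises of 1.72 ± 0.12 and 1.93 ± 0.12 over NL.

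Pkm, which makes pyruvate, had 1314, 1197 and 1295 CPM in the NL libraries, 3413, 3364 and 3321 CPM in Ly6Ghi and 4066, 4165 and 3887 CPM in Ly6Glow. Its rise was 1.41 ± 0.03 in Ly6Ghi and 1.67 ± 0.03 in Ly6Glow over NL, and a value per gene cannot separate its M1 and M2 splice forms. Lactate dehydrogenase divided by isoform. Ldha, the form that favors lactate, had 384, 357 and 381 CPM in the NL libraries, 1155, 1159.9 and 1109 CPM in Ly6Ghi and 1432, 1456 and 1384 CPM in Ly6Glow, with rises of 1.61 ± 0.03 and 1.93 ± 0.03. Ldhb, the form that favors pyruvate, had 8.76, 7.03 and 8.20 CPM in the NL libraries, 4.92, 4.96 and 4.33 CPM in Ly6Ghi and 3.82, 3.99 and 3.51 CPM in Ly6Glow. It fell over NL, at -0.75 ± 0.12 and -1.08 ± 0.13, and its share of the lactate dehydrogenase FPKM went from 2.87, 2.44 and 2.64% in the NL libraries to 0.534, 0.535 and 0.489% in Ly6Ghi and 0.339, 0.344 and 0.318% in Ly6Glow. Every library of Ly6Glow had a smaller Ldhb share than every library of Ly6Ghi.

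The gate from pyruvate to the mitochondria is pyruvate dehydrogenase, which the Pdk kinases switch off. Pdha1, its catalytic subunit gene, had 47.6, 49.1 and 48.1 CPM in the NL libraries, 105, 105 and 99.8 CPM in Ly6Ghi and 82.3, 93.5 and 87.3 CPM in Ly6Glow. The rises over NL were 1.10 ± 0.05 and 0.86 ± 0.05, the latter 0.16 and not called with library totals and flipping to -0.12 on log2(TPM + 1), where the former was 0.26 and not called. Pdk3 had 15.3, 13.0 and 14.9 CPM in the NL libraries, 51.3, 49.8 and 45.9 CPM in Ly6Ghi and 46.7, 48.8 and 48.2 CPM in Ly6Glow, rising by 1.77 ± 0.07 and 1.74 ± 0.07, and the macrometastatic groups overlapped. Pdk1, a kinase gene induced by hypoxia in many cells, had 7.32, 8.26 and 8.02 CPM in the NL libraries, 9.23, 9.09 and 9.41 CPM in Ly6Ghi and 17.1, 16.6 and 17.6 CPM in Ly6Glow. Here only Ly6Glow was called, by 1.12 ± 0.08 over NL and 0.89 ± 0.09 over Ly6Ghi (edgeR adjusted p = 9.33e-09). Of these the former was 0.42 with library totals and 0.22 on log2(TPM + 1), and the latter 0.50 on log2(FPKM + 1), none of them called. Ly6Ghi over NL, at 0.23 ± 0.09, flipped to -0.23 with library totals. Within the pair of kinases Pdk1 gave 18.4, 22.4 and 18.9% of the FPKM in NL, 7.89, 8.33 and 8.69% in Ly6Ghi and 14.7, 15.0 and 15.1% in Ly6Glow, so that Pdk3 led in each library and least so in NL.

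Lactate leaves through the monocarboxylate carriers, of which the 2 genes on the list differed from each other. Slc16a3, the exporter MCT4 of glycolytic cells, had 1908, 1633 and 1836 CPM in the NL libraries, 1248, 1273 and 1255 CPM in Ly6Ghi and 2884, 2929 and 2739 CPM in Ly6Glow. Ly6Glow was 1.18 ± 0.04 above Ly6Ghi (edgeR adjusted p = 7.17e-16), a rise kept under each alternative. Ly6Ghi over NL was -0.51 ± 0.04, short of the threshold with TMM and -0.97, past it, with library totals, and Ly6Glow over NL was 0.67 ± 0.04 with TMM and flipped to -0.03 with library totals, so that its direction over NL depends on the scaling. Slc16a1, the carrier MCT1, had 18.1, 17.4 and 17.1 CPM in the NL libraries, 10.4, 8.15 and 8.05 CPM in Ly6Ghi and 9.02, 7.75 and 6.63 CPM in Ly6Glow. It fell over NL, at -0.98 ± 0.10 and -1.17 ± 0.11, and made up less than 1% of the FPKM of these 2 carriers in each library. Slc16a7, another carrier gene outside the 42, was called lower in each comparison. It was at -1.14 ± 0.11 in Ly6Ghi over NL, -2.325 ± 0.14 in Ly6Glow over NL and -1.18 ± 0.17 in Ly6Glow over Ly6Ghi. Among all 42 members Slc16a3 ranked number 2 by FPKM in NL, number 11 in Ly6Ghi and number 4 in Ly6Glow, at 972, 498 and 957 FPKM.

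All 6 glycogen genes on the list were called higher over NL in both groups (background 26.3% and 28.7%), with medians of 1.83 and 2.05, although with log2(TPM + 1) the sign of Gbe1 in Ly6Glow flipped to -0.08. Pygl, the phosphorylase that frees glucose from glycogen, had 501, 495 and 508 CPM in the NL libraries, 2012, 2076 and 2052 CPM in Ly6Ghi and 2202, 2226 and 2212 CPM in Ly6Glow, and rose by 2.03 ± 0.03 and 2.14 ± 0.03. Gys1, the synthase that builds the chain, had 17.96, 16.7 and 17.7 CPM in the NL libraries, 98.8, 95.5 and 95.8 CPM in Ly6Ghi and 71.4, 76.2 and 67.8 CPM in Ly6Glow, and rose by 2.47 ± 0.05 and 2.04 ± 0.06. Ly6Glow over Ly6Ghi was 0.11 ± 0.03 for Pygl, with a sign that flipped with library totals (-0.12), and -0.43 ± 0.05 for Gys1, both within the fold threshold with TMM. Gys1 was called lower, at -0.67, with library totals. Gbe1, the branching enzyme, had 12.2, 11.9 and 12.6 CPM in the NL libraries, 29.8, 31.1 and 31.6 CPM in Ly6Ghi and 22.3, 21.8 and 24.0 CPM in Ly6Glow. It rose by 1.34 ± 0.06 (0.47 and not called on log2(TPM + 1)) and 0.89 ± 0.07 (0.19 and not called with library totals). Between the macrometastatic groups it was -0.44 ± 0.06 and not called with TMM, and -0.68 and called lower with library totals. Ugp2, which makes the sugar donor UDP-glucose, had 69.2, 84.8 and 74.7 CPM in the NL libraries, 178, 172 and 176 CPM in Ly6Ghi and 198, 199 and 202 CPM in Ly6Glow. The rise was 1.20 ± 0.05 and 1.39 ± 0.05, which on log2(TPM + 1) were 0.38 and 0.42 and not called.

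The phosphoglucomutases join glycogen to glycolysis. The file uses older symbols for them: its Pgm1 (gene ID 66681) is named Pgm2 in RefSeq, and its Pgm2 (gene ID 72157) is named Pgm1, and the symbols of the file are used here. Pgm1 had 43.6, 42.2 and 41.4 CPM in the NL libraries, 134, 134 and 133 CPM in Ly6Ghi and 174, 177 and 176 CPM in Ly6Glow, rising by 1.66 ± 0.04 and 2.05 ± 0.04 over NL. Pgm2 had 14.5, 13.6 and 13.6 CPM in the NL libraries, 54.3, 55.0 and 58.1 CPM in Ly6Ghi and 82.8, 85.1 and 84.5 CPM in Ly6Glow, rising by 2.00 ± 0.06 and 2.60 ± 0.05. Pgm2 was also called in Ly6Glow over Ly6Ghi, at 0.59 ± 0.05 and so at the threshold: it was 0.57 without Ly6Ghi replicate 1, and 0.58 without Ly6Glow replicate 2 and 0.36 with library totals, and was not called in any of these cases. The share of Pgm2 in the pair's FPKM was 26.9, 26.4 and 26.4% in NL, 30.4, 30.7 and 32.2% in Ly6Ghi and 34.3, 34.9 and 34.7% in Ly6Glow, 3 levels without overlap.

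The oxidative arm of the pentose phosphate pathway, which yields NADPH, took its largest share of the members' FPKM in Ly6Ghi. G6pdx, the entry enzyme, had 244, 228 and 253 CPM in the NL libraries, 1463, 1464 and 1437 CPM in Ly6Ghi and 1089.6, 1098 and 1082 CPM in Ly6Glow. Its rise over NL was 2.59 ± 0.04 in Ly6Ghi, the largest of the 42 in that comparison, and 2.17 ± 0.03 in Ly6Glow. Pgd, the second dehydrogenase of the arm, had 334, 304 and 342 CPM in the NL libraries, 1348, 1361 and 1352 CPM in Ly6Ghi and 1148, 1169.9 and 1096 CPM in Ly6Glow, and rose by 2.05 ± 0.04 and 1.80 ± 0.04. Pgls, the lactonase between them, had 16.8, 12.3 and 13.0 CPM in the NL libraries, 26.2, 28.6 and 27.8 CPM in Ly6Ghi and 16.6, 18.4 and 15.7 CPM in Ly6Glow. It rose in Ly6Ghi over NL, by 0.97 ± 0.09 (0.51 with library totals and 0.16 on log2(TPM + 1), not called with either). It was lower in Ly6Glow than in Ly6Ghi, at -0.71 ± 0.10 (edgeR adjusted p = 1.65e-06). NL and Ly6Glow overlapped at 0.27 ± 0.10, flipping to -0.43 with library totals and to -0.67, called lower, on log2(TPM + 1). For G6pdx and Pgd Ly6Glow over Ly6Ghi was -0.42 ± 0.03 and -0.25 ± 0.04, not called, and G6pdx was called lower, at -0.65, with library totals.

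In the non-oxidative arm, which returns pentoses to glycolysis, Tkt, the transketolase, had 303, 274 and 299 CPM in the NL libraries, 1234, 1235 and 1214 CPM in Ly6Ghi and 869, 893 and 839.8 CPM in Ly6Glow. It rose by 2.07 ± 0.04 in Ly6Ghi and 1.57 ± 0.04 in Ly6Glow, with -0.50 ± 0.04 between them, not called with TMM and -0.74, called lower, with library totals. Taldo1, the transaldolase, had 353, 341 and 342 CPM in the NL libraries, 649, 702 and 696 CPM in Ly6Ghi and 831, 857 and 858 CPM in Ly6Glow. It rose by 0.98 ± 0.03 (0.52 with library totals and 0.15 on log2(TPM + 1), not called with either) and 1.30 ± 0.03 (0.32 and not called on log2(TPM + 1)). Rpe, the epimerase, had 17.4, 19.3 and 19.7 CPM in the NL libraries, 66.1, 63.4 and 66.8 CPM in Ly6Ghi and 56.9, 59.6 and 58.5 CPM in Ly6Glow, and rose by 1.80 ± 0.06 and 1.63 ± 0.06. Rpia, the isomerase, was the only member not called in any comparison with all 9 libraries, the filter and TMM, and was given in full for that reason, after its values were seen, with 13.7, 12.4 and 13.9 CPM in the NL libraries, 19.6, 20.7 and 18.9 CPM in Ly6Ghi and 16.3, 16.6 and 18.1 CPM in Ly6Glow. Its value in Ly6Ghi over NL, 0.57 ± 0.07, lay just under the threshold, was called without either of Ly6Ghi replicates 1 and 3 or NL replicates 1 and 3 (up to 0.61), with DESeq2 (0.59) or without the filter on low counts (0.59), and flipped to -0.25 on log2(TPM + 1). Ly6Glow over NL, at 0.35 ± 0.08, flipped to -0.35 with library totals and to -0.60, called lower, on log2(TPM + 1).

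Set against the whole list, the branches took different shares of the FPKM of the 42 members in each group. The pentose phosphate genes gave 13.4, 13.8 and 13.6% in the NL libraries, 16.7, 17.2 and 17.3% in Ly6Ghi and 12.5, 12.6 and 12.8% in Ly6Glow. Those of the oxidative arm alone gave 5.61% ± 0.113, 9.70% ± 0.079 and 6.39% ± 0.019 (SD). Ly6Ghi was thus the highest group for this branch on both counts and FPKM, whereas the order of NL and Ly6Glow for the whole branch turned with the length scaling, from 13.6% and 12.6% of FPKM to 12.1% and 12.5% of counts. Lactate transport gave 15.7, 14.9 and 15.5% in NL, 3.89, 3.99 and 3.99% in Ly6Ghi and 7.51, 7.49 and 7.35% in Ly6Glow. Glucose uptake gave 8.08% ± 0.162, 4.49% ± 0.113 and 5.63% ± 0.071. A share also moves with the other members: the summed FPKM in NL, Ly6Ghi and Ly6Glow was 6365, 12647 and 12867 for all 42, 514, 568 and 725 for uptake, 977, 500.4 and 959 for lactate transport and 865, 2156 and 1625 for the pentose phosphate genes. The 17 glycolytic enzymes gave 55.9% ± 0.344, 65.6% ± 0.612 and 65.3% ± 0.312, alike in the macrometastatic groups. The 7 regulators gave 2.07% ± 0.095, 2.02% ± 0.017 and 2.62% ± 0.039, and glycogen 4.97% ± 0.286, 6.90% ± 0.136 and 6.31% ± 0.146. As a ratio within a library, Pfkfb3 to G6pdx, chosen after their values were seen, was 0.421, 0.445 and 0.398 by FPKM in NL, 0.168, 0.162 and 0.17 in Ly6Ghi and 0.544, 0.537 and 0.537 in Ly6Glow.

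**Figure D4:**
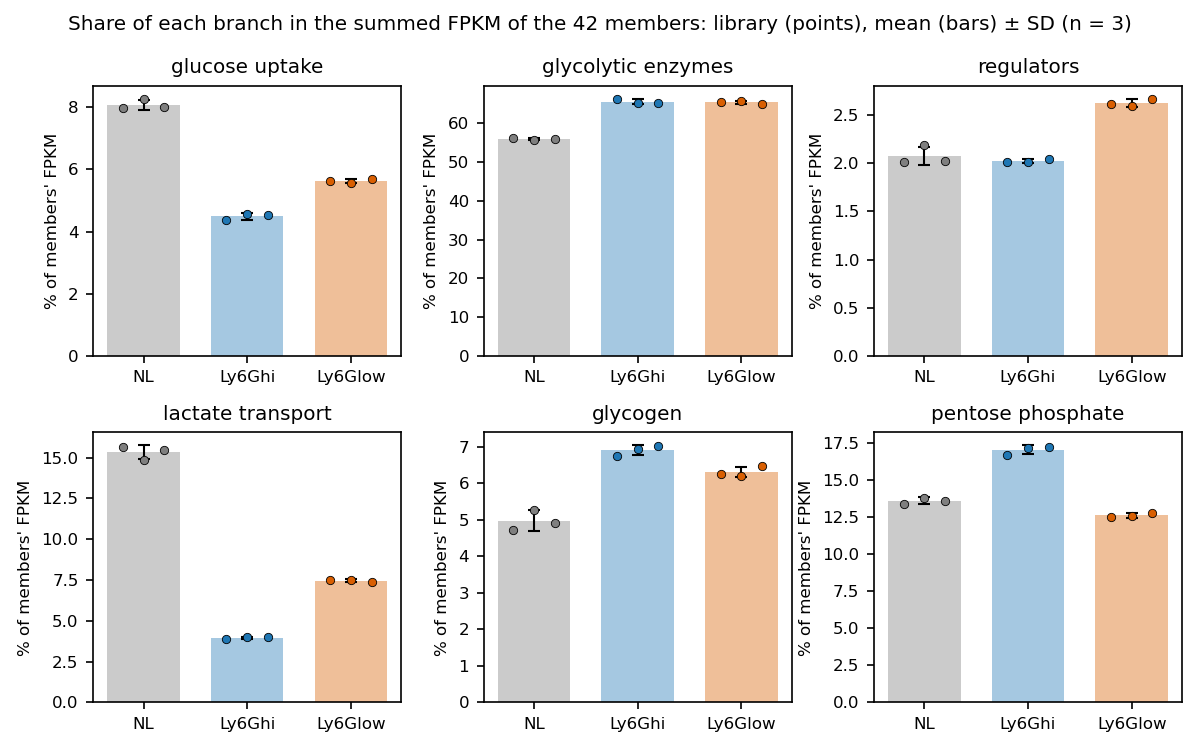
Share of 6 branches in the summed FPKM of the 42 members (vertical axis, percent), as library values (points), group means (bars) and SD (n = 3). Lactate transport takes 15.3% in NL, 3.96% in Ly6Ghi and 7.45% in Ly6Glow, and pentose phosphate is highest in Ly6Ghi at 17.1%, while the order of NL and Ly6Glow in that panel turns when counts replace FPKM.

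Genes of the same pathways outside the 42 were read from a list of 70 symbols, of which 66 were in the table and 57 were tested. In Ly6Ghi over NL 14 of 57 were called higher (24.6%, against 26.3% of all genes) and 28 lower (49.1%, against 36.6%). In Ly6Glow over NL the numbers were 15 (26.3%, against 28.7%) and 29 (50.9%, against 40.8%), and in Ly6Glow over Ly6Ghi 3 (5.26%, against 9.29%) and 13 (22.8%, against 15.9%). The medians were -0.51, -0.65 and -0.45. Gyg, the protein primer of glycogen, had 92.7, 91.9 and 93.9 CPM in the NL libraries, 327, 322 and 318 CPM in Ly6Ghi and 409.9, 424 and 412 CPM in Ly6Glow, and rose by 1.79 ± 0.03 and 2.16 ± 0.03 over NL. So did the phosphorylase kinase subunit genes Phkb, at 0.69 ± 0.06 and 0.79 ± 0.06, and Phkg2, at 0.94 ± 0.08 and 0.69 ± 0.08, and the phosphatase-targeting Ppp1r3d, at 1.16 ± 0.04 and 1.56 ± 0.04. With library totals the median of all genes moved from -0.09 to -0.55 in Ly6Ghi over NL and from -0.16 to -0.86 in Ly6Glow over NL. A shift of that size would take the rises of Phkb and Phkg2 below the threshold. Other glycogen genes fell over NL in both groups. The phosphorylase isoforms Pygb and Pygm were at -0.93 ± 0.08 and -0.78 ± 0.11 in Ly6Ghi and -1.38 ± 0.09 and -0.65 ± 0.12 in Ly6Glow. Gaa, the acid glucosidase of lysosomes, was at -1.02 ± 0.07 and -1.68 ± 0.08, the glycogen phosphatase gene Epm2a at -2.19 ± 0.43 and -2.38 ± 0.48, and Ppp1r3c, another targeting subunit of a phosphatase, at -2.34 ± 0.39 and -3.43 ± 0.51. Ppp1r3b, which targets a phosphatase to glycogen and favors synthesis, had 289.8, 299 and 290.2 CPM in the NL libraries, 384, 379 and 378 CPM in Ly6Ghi and 810.4, 806 and 818 CPM in Ly6Glow. In Ly6Glow over Ly6Ghi it rose by 1.09 ± 0.03. Pgm5, a mutase relative of adhesion sites in muscle, fell from a mean of 23.6 CPM in NL at -3.18 ± 0.12 and -2.92 ± 0.13. H6pd, the counterpart of G6pdx in the endoplasmic reticulum, was lower in Ly6Glow than in Ly6Ghi at -0.74 ± 0.06, as was Dera, an aldolase of deoxyribose phosphate, at -0.92 ± 0.09. Prps2, which uses ribose phosphate for nucleotides, fell in Ly6Glow over NL at -2.06 ± 0.13.

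Over NL most members moved to the same side as the neutrophil markers described above, and the part of cell composition in them was not tested. The median log2 fold change of the 10 neutrophil markers was 1.69 in Ly6Ghi and 1.80 in Ly6Glow over NL, beside 1.41 and 1.50 for the 42 members. Of these markers 10 of 10 were called higher in Ly6Ghi and 9 of 10, all but Camp, in Ly6Glow. The endothelial, fibroblast, and epithelial and tumor cell lists had medians of -2.98, -3.40 and -3.47 in Ly6Ghi over NL and -2.75, -3.50 and -3.82 in Ly6Glow over NL. Called lower were 5 of 5, 5 of 5 and 9 of 9 of their markers in Ly6Ghi, and 5 of 5, 5 of 5 and 8 of 9 in Ly6Glow. Pfkm, Ldhb and Slc16a1, named here as the 3 members that fell in both, are by that choice on the same side as these lists.

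Between Ly6Glow and Ly6Ghi the structural lists had medians of 0.30, 0.06 and -0.33. None of the 5 endothelial or 5 fibroblast markers was called, and 3 of the 9 epithelial and tumor cell markers were lower, Krt19 at -1.47 ± 0.21, Epcam at -1.11 ± 0.28 and Krt8 at -0.60 ± 0.23. The neutrophil markers split around a median of 0.03: the granule genes Camp and Ltf were lower, at -2.55 ± 0.04 and -1.91 ± 0.03, and Csf3r, Retnlg and Cxcr2 were higher, at 0.89 ± 0.03, 0.89 ± 0.03 and 0.66 ± 0.03. By FPKM the means of Cxcr2 were closer, 544 in Ly6Ghi and 731 in Ly6Glow. Lists of other leukocytes and of younger neutrophils differed too. The 11 alveolar macrophage markers, with 8 called lower in Ly6Glow, led by Chil3 and none at 0, summed to 1756, 1764 and 1739 CPM in NL, 1576, 1524 and 1535 CPM in Ly6Ghi and 326, 347 and 334 CPM in Ly6Glow. Chil3 alone had a mean of 964 CPM in NL and 1274 CPM in Ly6Ghi, an order that turned to 847 and 810.4 in FPKM. Over NL 8 of the 11 were lower in Ly6Ghi (median -1.95) and 10 in Ly6Glow (median -4.79). The 5 early neutrophil granule genes, of which 5 were lower in Ly6Glow and none was at 0, summed to 4.18, 2.97 and 4.01 CPM, 91.0, 89.8 and 89.9 CPM and 18.4, 17.2 and 16.2 CPM in the same order, led by Mpo in NL and by Prtn3 in the others. The 4 eosinophil markers, of which 4 were lower in Ly6Glow and none was at 0, summed to 2.78, 3.92 and 3.29 CPM, 52.0, 53.5 and 48.8 CPM and 7.07, 7.90 and 6.79 CPM, led by Il5ra, Prg2 and Ccr3. For the remaining lists the mean sums in NL, Ly6Ghi and Ly6Glow were 1266, 811 and 737 CPM for monocytes and macrophages, 65.9, 42.5 and 30.3 CPM for T and NK cells, and 22.6, 40.7 and 24.9 CPM for B cells. They were 29.5, 10.5 and 12.4 CPM for dendritic cells, 26.9, 31.1 and 19.0 CPM for basophils and mast cells, and 11.9, 0.203 and 0.287 CPM for erythroid cells, where Hba-a2 was at 0 in both macrometastatic groups. Of the markers tested, 4 of the 4 for B cells, 3 of the 4 for basophils and mast cells, 3 of the 10 for monocytes and macrophages and 2 of the 6 for T and NK cells were also called lower in Ly6Glow over Ly6Ghi, with medians of -0.71, -0.92, -0.41 and -0.35. Alveolar macrophage, early granule and eosinophil markers had medians of -2.57, -2.25 and -2.84 there. The members highest in Ly6Ghi by CPM were Hk1, Hk3, Gpi1, Fbp1, Pdha1, Pdk3, Gys1, Gbe1, G6pdx, Pgls, Pgd, Tkt, Rpe and Rpia. Of these, Fbp1 and Pgls were called lower in Ly6Glow over Ly6Ghi, and Hk1 and Pdk3 turned to 0.000868 and 0.0337 with DESeq2 size factors. Being picked as highest in Ly6Ghi puts these members on the side of the medians of these 7 lists. The part of such cells in their values was not tested.

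**Figure D5:**
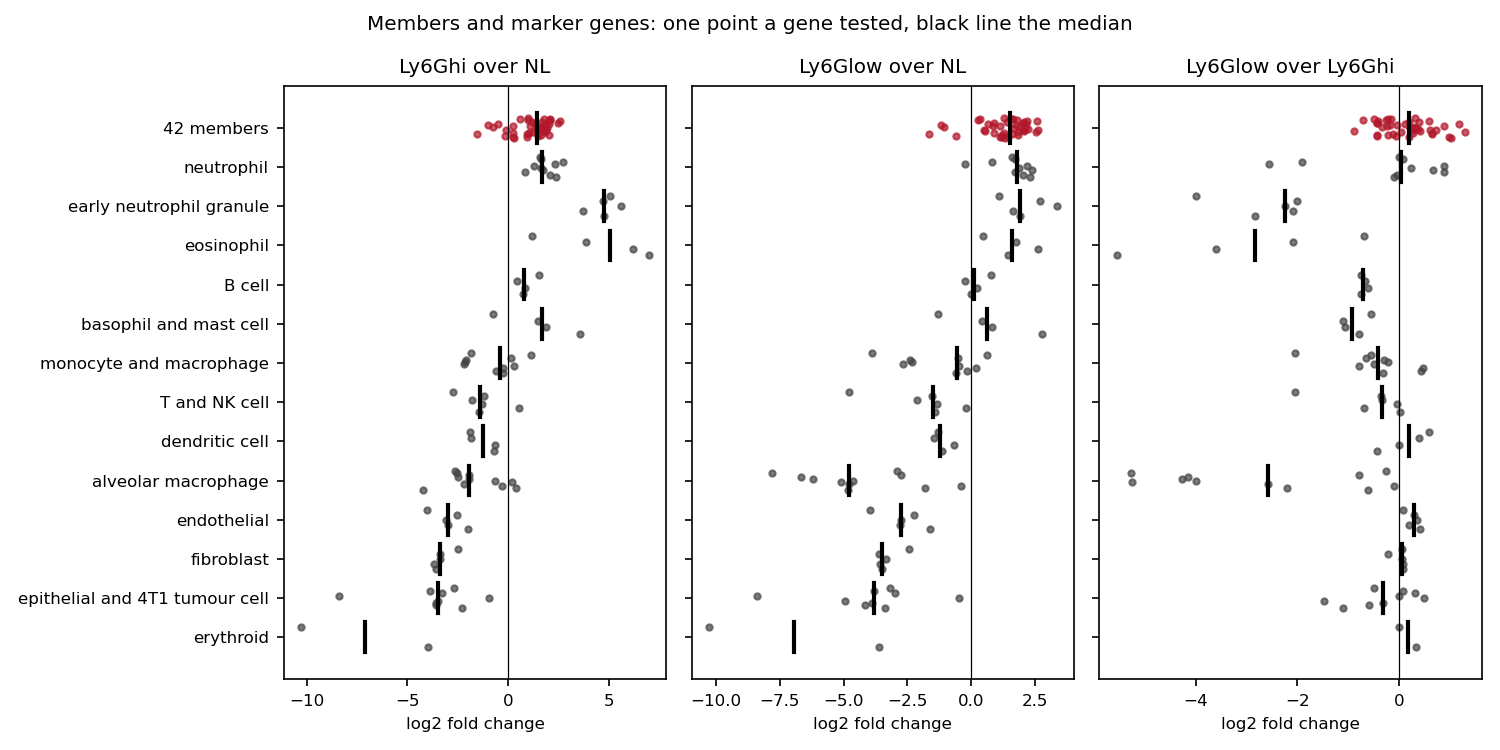
Log2 fold change (horizontal axis, with a scale of its own in each panel) of the 42 members and of the tested genes of 13 marker lists in the 3 comparisons, one point a gene, with the median of each list as a black line. Over NL most members and neutrophil markers lie above 0, with medians of 1.41 and 1.69 in Ly6Ghi and 1.50 and 1.80 in Ly6Glow, and the medians of the lung structural lists lie below 0.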

How the data were processed

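Poly(A) RNA of 9 libraries was sequenced by the submitters as 150 bp pairs, and their processing notes name mm10. The aligner and the counting program are not given in the sources used here. The authors deposited estimated counts per gene, not normalized and 37.9% of them whole numbers, with one column per library. The authors also deposited FPKM, scaled per kilobase and per total. Of 22064 genes listed, 3739 had blank values and were left out. Estimated counts were rounded, filtered with filterByExpr (14108 genes kept) and tested in one model of the 3 groups with edgeR's quasi-likelihood F test and TMM factors, with Benjamini-Hochberg adjusted p over the genes tested. The common biological coefficient of variation was 0.0346, and Pearson correlations within groups lay between 0.9905 and 0.9944. CPM use the TMM factors, and shares and ratios come from FPKM within a library. Versions were R 4.3.3, edgeR 4.0.16, limma 3.58.1 and DESeq2 1.42.0. The code was tested on simulated data.

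Full values are given for members called in at least 1 comparison without overlap of the groups and with at least 10 CPM in the highest group, and for isoforms with at least 1 FPKM. Of further pathway genes the 3 largest differences per comparison among such genes are named. Some other glycogen genes called over NL in both groups are named outside that rule, with no floor on CPM. So are further genes of pyruvate dehydrogenase and its kinases, and the lactate carrier gene Slc16a7. The members and lists were chosen with earlier results of these data known. Marker lists numbered 13, with 83 of 85 symbols found. Alternatives were other scaling factors, DESeq2, other filters and thresholds, limma on log2 FPKM and TPM, a replicate block, each library left out, shares from counts and, chosen after seeing the data, library totals. No comparison was left out.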

Additional observations from a re-analysis of the deposited data

How the results depend on the processing

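Of 2835 values of single genes under an alternative with the same fold threshold, 2599 kept their direction and call, 107 were no longer called, 53 were newly called and 76 changed sign, of which 8 had been called. In each comparison with NL 21 members stayed higher and 3 lower throughout these, and in Ly6Glow over Ly6Ghi 4 stayed higher and 2 lower.

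Ly6Ghi over NL. Without a fold threshold 5 members were lower (of all genes 44.7%), and with a threshold of 1, 1 (29.1%). Lower were 5 with library totals (chosen after seeing the data; 48.5%) and in each fit on log2 FPKM (36.4% with + 1, 39.4% with its filter and 47.4% with + 0.1), and 7 on log2(TPM + 1) (54.4%). The median of the members was 1.22 with upper-quartile factors, 1.24 with at least 10 counts in every library, 0.95 with library totals, 0.87 on log2(FPKM + 1) with and without its filter, 0.93 on log2(FPKM + 0.1) and 0.53 on log2(TPM + 1). Signs changed with library totals (Slc2a1 -0.19, Slc2a6 -0.24, Pfkp -0.23 and Pdk1 -0.23), on log2(FPKM + 1) with and without the filter (Slc2a1 -0.19, Slc2a6 -0.24, Pfkp -0.21 and Pdk1 -0.10), on log2(FPKM + 0.1) (Slc2a1 -0.19, Slc2a6 -0.25, Pfkp -0.21 and Pdk1 -0.14) and on log2(TPM + 1) (Slc2a1 -0.55, Slc2a6 -0.61, Pfkp -0.57, Pdk1 -0.42 and Rpia -0.25).

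Ly6Glow over NL. On log2(TPM + 1) 21 members were higher (of all genes 4.77%). Medians were 1.59 with DESeq2 and with its size factors, 1.31 with upper-quartile factors, 1.32 with at least 10 counts, 0.80 with library totals, 0.78 on log2(FPKM + 1) with and without the filter, 0.80 on log2(FPKM + 0.1) and 0.51 on log2(TPM + 1). Signs changed with library totals (Fbp1 -0.17, Aldoc -0.21, Slc16a3 -0.031, Pgls -0.43 and Rpia -0.35), on log2(FPKM + 1) with and without the filter (Fbp1 -0.0934, Aldoc -0.17, Slc16a3 -0.0192, Pgls -0.39 and Rpia -0.31), on log2(FPKM + 0.1) (Fbp1 -0.16, Aldoc -0.21, Slc16a3 -0.0192, Pgls -0.41 and Rpia -0.34) and on log2(TPM + 1) (Pfkp -0.10, Fbp1 -0.32, Aldoc -0.44, Pdha1 -0.12, Slc16a3 -0.30, Gbe1 -0.0815, Pgls -0.67 and Rpia -0.60).

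Ly6Glow over Ly6Ghi. Without a fold threshold 23 members were higher and 13 lower (of all genes 26.1% and 29.6%), and with a threshold of 1, 3 and 0 (2.42% and 6.83%). Library totals gave 5 and 8 (4.04% and 26.4%), log2(FPKM + 1) 4 and 8 without the filter (2.27% and 13.6%) and with it (2.71% and 16.1%), log2(FPKM + 0.1) 5 and 8 (3.61% and 25.4%), and log2(TPM + 1) 5 and 5 (3.44% and 14.3%). Medians were 0.26 with DESeq2 and with its size factors, -0.0445 with library totals, -0.043 on log2(FPKM + 1) with and without the filter, -0.0434 on log2(FPKM + 0.1) and 0.0417 on log2(TPM + 1). Signs changed with DESeq2 and with its size factors (Hk1 0.000867 and Pdk3 0.0336, and Hk1 0.000868 and Pdk3 0.0337), with library totals (Slc2a3 -0.0406, Pfkfb4 -0.21, Eno1 -0.0278, Pygl -0.12 and Ugp2 -0.0485), on log2(FPKM + 1) with and without the filter (Slc2a3 -0.0403, Pfkfb4 -0.20, Eno1 -0.0282, Pygl -0.12 and Ugp2 -0.0457), on log2(FPKM + 0.1) (Slc2a3 -0.0404, Pfkfb4 -0.20, Eno1 -0.0282, Pygl -0.12 and Ugp2 -0.0463) and on log2(TPM + 1) (Pfkfb4 -0.12 and Pygl -0.0375), and without Ly6Glow replicate 3 (Pfkm 0.0104). The all-gene median moved with the scaling, which by construction moves each gene alike, and the cause of the difference between the scalings was not tested.

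Leaving out each library in turn gave 31 to 32 members higher and 3 lower in Ly6Ghi over NL (median 1.38 to 1.44), 34 to 35 and 3 to 4 in Ly6Glow over NL (1.48 to 1.53), and 8 to 10 and 2 in Ly6Glow over Ly6Ghi (0.18 to 0.19). With the replicate number as a block the counts were 31 and 3, 34 and 4, and 10 and 2, with medians of 1.41, 1.50 and 0.19, and no call changed. Libraries of the same number correlated between -0.0683 and 0.0766 in their deviations, and those of other numbers between -0.0998 and 0.139. With so small a spread within groups, this check cannot tell whether libraries of the same number share a source. Shares moved by more than 1 SD in 86 of 360 values, all 86 when counts replaced FPKM. Library totals were alike across the groups, while TMM factors ran from 0.803 in Ly6Glow to 1.32 in NL. With 3 libraries a group, genes of a few CPM such as Pfkm and Fbp1 have the widest errors. Whether libraries are mice, pools or splits of one sample is not stated.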
